A study of Mus musculus with 6 samples.

Results

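Interferon-stimulated genes are the genes that cells switch on when interferon binds its receptors, and 41 of them, named by symbol in a list, were followed here across 6 RNA-seq libraries of alveolar macrophages from mice. These macrophages live in the air spaces of the lung and take up particles, surfactant and microbes. The members were taken as the rows of the expression table whose gene name was in the list. The table held 40 of the 41 symbols among its 11789 genes. The antiviral GTPase gene Mx2 had no row and was not analysed here. A further member, Ifi44, had a mean below the minimum used for testing, which left 39 members among the 10696 genes tested. All animals were C57BL/6 mice exposed to what the labels abbreviate as BLM, and the tissue was lung. Libraries BLM1, BLM2 and BLM3 were taken as those of wild-type mice, and A20-1, A20-3 and A20-4 as those of mice with a conditional knockout of A20, the ubiquitin-editing protein encoded by Tnfaip3 that restrains inflammatory signalling. Where Cre was active, which exons were deleted, the dose, the time after exposure and the age of the animals are not stated in the labels, nor whether a library came from a single animal or a pool. The p-values therefore describe the spread among these libraries, some of which may be technical.

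Type I interferons signal through the receptor pair IFNAR1 and IFNAR2 and the kinases JAK1 and TYK2. These lead to assembly of the complex ISGF3, with STAT2 and IRF9 among its subunits, which binds the interferon-stimulated response element (ISRE) of genes such as the Ifit, Oas and Mx families. Type II interferon, the product of Ifng, signals through IFNGR1 and IFNGR2 to factors that bind the gamma-activated site (GAS) and drive Irf1, the guanylate-binding proteins (Gbp) and the immunity-related GTPases (IRG). Most members respond to both types in some degree. In the lung, alveolar macrophages are a known source of type I interferon after viral infection.

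Promoter sequence was available for 31 of the 41 members, in 38 windows of 300 bases that run from 250 bases before to 50 bases after an annotated start (RefSeq, GRCm38.p6). The other 10 were Oas2, Mx1, Mx2, Usp18, Parp9, Parp14, Zbp1, Ifi204, Rtp4 and Ifi27l2a. An ISRE core was searched as GAAA, any 2 bases, then GAAA again, and the GAS as TTCNNNGAA, on both strands, and matches of the pair may overlap. The ISRE core stood in 16 of the 38 windows (42.1%), against 3.44% of all 32851 promoter windows. The GAS stood in 10 of the 38 (26.3%), against 8.3% of all. Both motifs occurred on either side of the division between the families named first for type I and for type II interferon. The ISRE core stood in 2 of 4 Oas windows and 3 of 4 Gbp windows, and the GAS in 1 of 4 of each. The stretches upstream of the start are printed for 7 members from several families whose values are described. Motif letters are in capitals, and the letters are given on the strand of the gene. TTTC, 2 bases and TTTC again is the ISRE core read from the opposite strand.
Ifit1 (chr19:34640760-34640838, plus strand): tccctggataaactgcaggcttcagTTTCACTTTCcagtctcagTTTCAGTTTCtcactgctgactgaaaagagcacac
Ifit3 (chr19:34583348-34583441, plus strand): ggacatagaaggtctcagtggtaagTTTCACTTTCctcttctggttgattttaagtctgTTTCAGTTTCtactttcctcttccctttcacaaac
Oas1a (chr5:120907526-120907648, minus strand): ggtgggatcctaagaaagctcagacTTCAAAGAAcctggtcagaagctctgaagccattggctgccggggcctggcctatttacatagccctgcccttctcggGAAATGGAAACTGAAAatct
Isg15 (chr4:156200850-156200921, minus strand): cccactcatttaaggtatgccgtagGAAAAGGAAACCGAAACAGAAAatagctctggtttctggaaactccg
Gbp3 (chr3:142559974-142560039, plus strand): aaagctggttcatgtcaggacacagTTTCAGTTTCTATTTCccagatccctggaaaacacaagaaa
Igtp (chr11:58199486-58199555, plus strand): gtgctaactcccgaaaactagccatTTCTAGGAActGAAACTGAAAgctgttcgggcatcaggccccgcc
Irf1 (chr11:53769899-53769957, plus strand): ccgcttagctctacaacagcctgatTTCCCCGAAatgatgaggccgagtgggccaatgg

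Ifit1 and Ifit3 carried a pair of ISRE cores each, and Oas1a, Isg15 and Gbp3 had overlapping ISRE cores. Oas1a also held a GAS. In Igtp the GAS began at base -45 and the ISRE core at base -34 from the start. The Irf1 stretch held a GAS and no ISRE core. A match in these letters is a description and shows no binding.

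Read depth is unknown, because the files give only FPKM, a fragment count scaled by transcript length and by library size, whose values sum to between 266094 and 294525 over the listed genes. Whole-gene FPKM of Tnfaip3 in the knockout libraries, always listed in the order A20-1, A20-3, A20-4, was 8.44, 12.9 and 6.80. In the wild-type libraries, listed as BLM1, BLM2, BLM3, it was 4.47, 2.18 and 21.6. The difference was 0.46 ± 0.69 in log2(FPKM + 1) (SE, limma adjusted p = 0.734), and without BLM3 it was 1.27 ± 0.31 (adjusted p = 0.0797), with every knockout value above BLM1 and BLM2. The level was thus not lower under the knockout label, and since the deleted exons are not known the value cannot check the label, so "knockout" names the label only. All 11 alveolar macrophage markers were detected in every library, among them Chil3 at 2998 to 5471 FPKM. Library BLM3 stood apart. Its summed neutrophil markers (6 of 9 in the table) came to 2586 FPKM, mostly from S100a8 and S100a9, against 74.0 to 138 in the other 5 libraries. Ly6g, which defines neutrophils, was at 2.25 in BLM3 and at 0 in 4 of the other 5. Mmp8 of that list was highest in A20-3, and S100a8 fell without BLM3 (limma adjusted p = 0.0185). The 11 T and NK cell markers summed to 297 FPKM in BLM3, 101 to 123 in BLM1 and BLM2 and 142 to 175 in the knockout libraries. The B cell markers (5 of 6) summed to 84.8 in BLM1 and 78.1 in BLM3 and to 10.6 to 20.1 elsewhere, while the 11 alveolar macrophage markers summed to 3717 in BLM3 and 4907 to 7210.3 in the others, mostly from Chil3. Within that list Marco fell (adjusted p = 0.0466 with 6 libraries), and Krt79 and Cidec rose without BLM3 (adjusted p = 0.0462 and 0.0266). Monocyte and recruited macrophage markers (all 8, on 9 rows) summed to 221 to 346 in the knockout and 952 to 1117 in the wild-type libraries, and the complement genes C1qa and C1qb among them fell (limma adjusted p = 0.014 and 0.0134). The 8 lung epithelial markers summed to 276 to 368 in the knockout, 175 to 189 in BLM1 and BLM2 and 63.5 in BLM3, mostly from Scgb1a1 and Sftpc, while Krt8 and Krt18 of that list fell without BLM3 (adjusted p = 0.0268 and 0.0114). Siglech, which defines plasmacytoid dendritic cells, had no row, and the 5 of 8 markers of those cells in the table summed to 61.2 to 75.1 in the knockout and 100.2 to 182 in the wild-type libraries, most of it from Bst2, itself a member. The marker genes named here were chosen after their values were seen. The part of these other cells in the interferon values was not tested, and in bulk RNA more cells of a kind and more RNA per cell cannot be told apart. Results are therefore given with and without BLM3.

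Every member in the table, 40 of 40, had its highest FPKM of the 6 libraries in BLM3, as did 26.5% of all genes tested. Over the 39 tested members the log2(FPKM + 1) level of BLM3 exceeded the mean of BLM1 and BLM2 by a median of 1.55, with a range from 0.38 for the double-stranded RNA-dependent kinase gene Eif2ak2 to 3.49 for the viperin gene Rsad2. The median of the same quantity over all genes tested was 0.011. Rsad2 was at 4.73 and 4.49 FPKM in BLM1 and BLM2 and at 62.1 in BLM3, 13.5 times their mean. The plot of every member by library shows BLM3 to the right of the other 5 throughout.

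**Figure D1:**
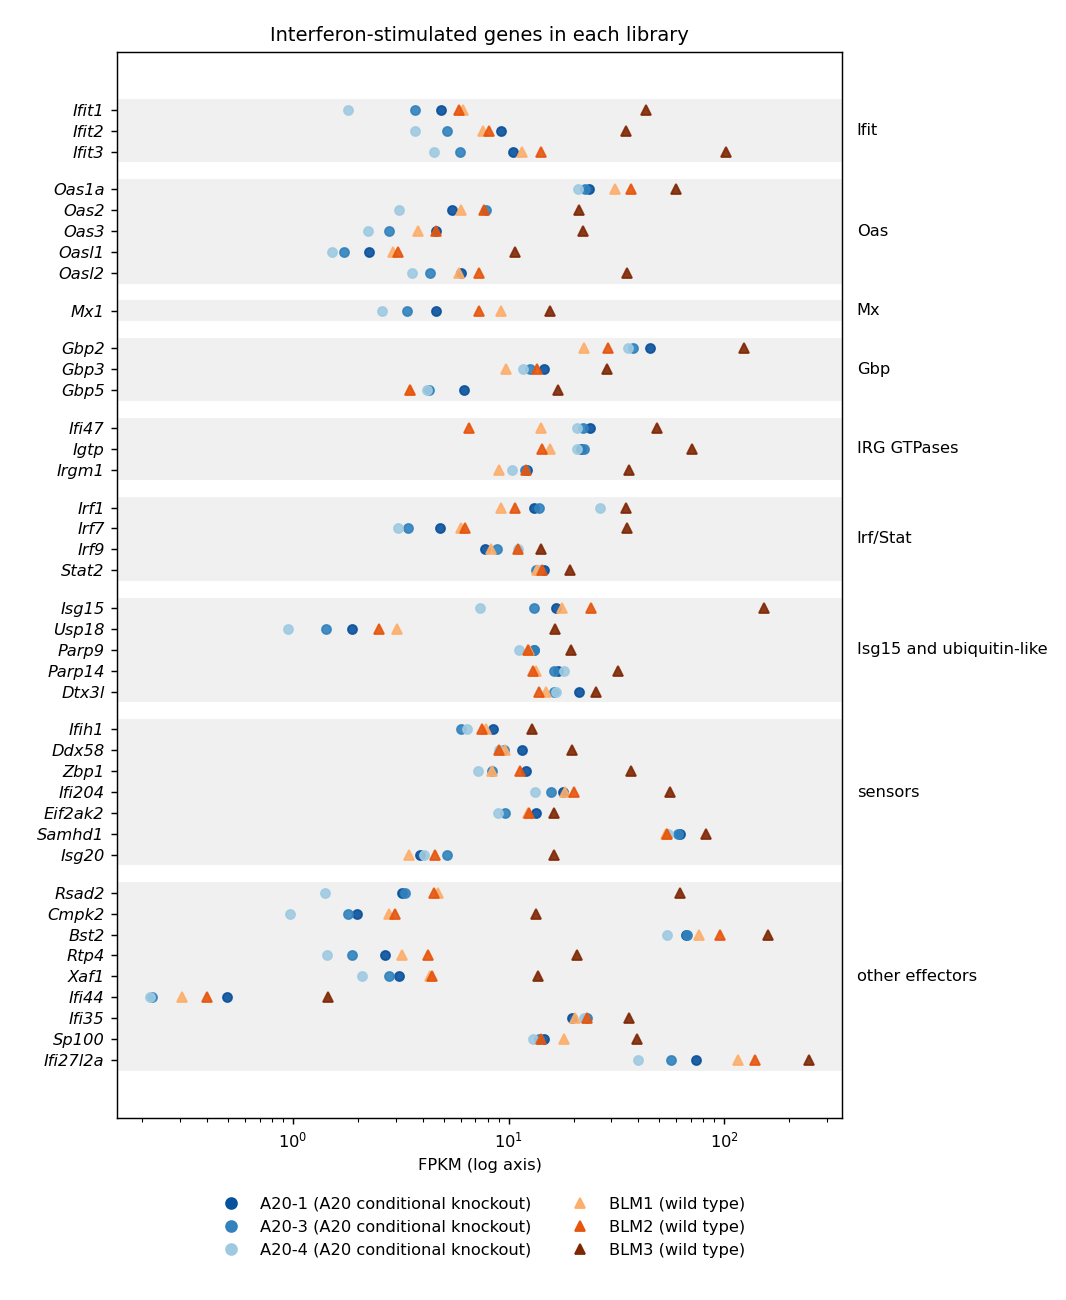
FPKM (log axis) of the 40 listed interferon-stimulated genes in each of 6 libraries, grouped by family; circles are the libraries labelled A20 conditional knockout and triangles those of wild-type mice. The BLM3 triangle lies to the right of every other point in all 40 rows, at 152 FPKM for Isg15 against 7.38 to 24.0 elsewhere.

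With all 6 libraries, 0 of 39 members passed the limma test in either direction (adjusted p under 0.05), against falls in 0.851% and rises in 0.252% of all genes tested. At an unadjusted p under 0.05 limma gave 6 of 39 members, or 15.4%, below the 20.3% of all genes tested. All differences below subtract the wild-type from the knockout mean of log2(FPKM + 1). They were negative for 36 members and positive for 3, with a median of -0.71 beside 0.021 over all genes tested. All 3 knockout values lay below all 3 wild-type values in 15 of 39 members, or 38.5%, against 13.1% of all genes tested. No member could have all knockout values above all wild-type values, as 15.9% of all genes did, because BLM3 was the highest library for each. Since the members share regulators and libraries, these shares describe the list and are not a test of it.

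Without BLM3 the median difference was -0.21, beside 0.028 over all genes tested, with 24 negative and 15 positive members. In that comparison of 3 libraries with 2, Mx1 and Oas1a fell (2 of 39, or 5.13%, against 2.50% of all genes) and Igtp rose (1 of 39, or 2.56%, against 1.35%), so the members' shares of calls were small on either side. At an unadjusted p under 0.05 there were 19 of 39, or 48.7%, against 23.3% of all genes. Since BLM3 was the highest library for every member, the 15 members below all wild-type values were necessarily the same (19.6% of all genes lay so in this setting), and 8 lay wholly above them, or 20.5%, close to the 23.5% of all genes. These 8 were Gbp2, Gbp5, Igtp, Ifi47, Irf1, Parp14, Dtx3l and Samhd1. When limma weighted each library by its own variability, 3 members fell, Mx1, Oas1a and Ifi27l2a, and 0 rose, while 9.27% of all genes fell and 8.81% rose.

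The Ifit family encodes tetratricopeptide proteins that bind viral RNA and block its translation. Its 3 members lie in a cluster on chromosome 19 (GRCm38, Ifit2 at chr19:34550694-34576419, Ifit3 at chr19:34583531-34588731 and Ifit1 at chr19:34640871-34650009, all on the plus strand). Ifit3 had FPKM of 10.4, 5.96 and 4.52 in the knockout libraries and of 11.6, 14.1 and 102 in the wild-type libraries. Its knockout values were all below its wild-type values, and BLM3 was 7.92 times the mean of BLM1 and BLM2. The difference was -1.82 ± 0.80 (SE, n = 3 each, limma adjusted p = 0.263), or -0.86 ± 0.30 without BLM3 (adjusted p = 0.154). Ifit1 showed the same arrangement, with 4.84, 3.67 and 1.80 FPKM in the knockout and 6.16, 5.89 and 43.4 in the wild-type libraries. Ifit2 had 9.19, 5.17 and 3.69 and 7.62, 8.07 and 35.0 FPKM, and there A20-1 lay above BLM1 and BLM2, so the groups overlapped. The family median was -1.61 with 6 libraries and -0.73 without BLM3. Ifit3 has the near-identical neighbour Ifit3b, at 3.74, 1.67 and 1.63 and 3.26, 4.15 and 33.3 FPKM, and how reads were divided between them is not given, so both values are uncertain.

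The Oas genes encode oligoadenylate synthetases, which sense double-stranded RNA and activate RNase L, and Oasl1 and Oasl2 encode related proteins. All 5 members lie on chromosome 5. Oas1a (chr5:120896256-120907521, minus strand) was the most abundant, with 23.6, 22.5 and 20.9 FPKM in the knockout and 31.3, 37.0 and 60.0 in the wild-type libraries. The groups did not overlap, and the means were 22.3 ± 1.34 and 42.7 ± 15.2 (SD, n = 3 each). Its difference over 6 libraries was -0.85 ± 0.23 (SE) and did not pass the test (limma adjusted p = 0.125), and without BLM3 Oas1a fell by 0.58 on the log2 scale (adjusted p = 0.0482). Its close paralog Oas1g, at 5.82, 5.61 and 5.04 and 8.32, 11.6 and 18.1 FPKM, may share reads with it. Oasl1 had 2.25, 1.72 and 1.52 and 2.89, 3.06 and 10.7 FPKM, again without overlap. For Oasl2, at 5.99, 4.34 and 3.58 and 5.92, 7.32 and 35.4, A20-1 lay above BLM1, so that the groups overlapped. Oas2 (5.45, 7.84 and 3.08 against 6.00, 7.66 and 21.3) and Oas3 (4.59, 2.78 and 2.24 against 3.81, 4.59 and 22.2) overlapped too, because 1 or more knockout libraries reached the level of BLM1. All 5 differences were negative with and without BLM3, between -1.21 and -0.85 with 6 libraries and between -0.58 and -0.34 without it.

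Mx1, the dynamin-like GTPase gene of the Mx pair, gave the smallest p of the 39 members. The Mx1 allele of C57BL/6 and most other inbred mice lacks several exons and yields no functional protein. FPKM was 4.58, 3.37 and 2.59 in the knockout and 9.17, 7.32 and 15.5 in the wild-type libraries (chr16:97447035-97462907, minus strand). The groups did not overlap, and BLM3 was 1.89 times the mean of BLM1 and BLM2, against 7.21 times for Ifit1. The difference was -1.33 ± 0.28 (SE, limma adjusted p = 0.0857), and without BLM3 Mx1 fell by 1.05 (adjusted p = 0.0482).

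The guanylate-binding proteins, GTPases that attack pathogen-containing vacuoles and promote inflammasome activation, had another arrangement. Gbp2, Gbp3 and Gbp5 lie together on chromosome 3 (Gbp2 at chr3:142620602-142638008). Gbp2 had 45.3, 37.7 and 35.8 FPKM in the knockout and 22.4, 28.9 and 124 in the wild-type libraries, so that every knockout value lay above BLM1 and BLM2 and below BLM3. With 6 libraries the difference was -0.14 ± 0.60 (SE, limma adjusted p = 0.915), and without BLM3 it was 0.61 ± 0.15 (adjusted p = 0.0856). Gbp5 had 6.21, 4.26 and 4.16 and 3.49, 3.47 and 16.9 FPKM, with the knockout libraries again between BLM3 and the other wild-type libraries. Gbp3, at 14.6, 12.6 and 11.6 and 9.77, 13.6 and 28.5, overlapped between the groups also when BLM3 was set aside. All 3 differences were negative with 6 libraries (median -0.26) and positive without BLM3 (median 0.37) or with array weights, and no member passed the test in any of these settings.

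The immunity-related GTPases of the list, which act on vacuoles of intracellular pathogens and are textbook targets of type II interferon, resembled the Gbp genes. Igtp (chr11:58199556-58207591, plus strand) had 21.6, 22.3 and 20.7 FPKM in the knockout and 15.6, 14.3 and 71.0 in the wild-type libraries. The 3 knockout values were close together and lay between BLM3 and the other wild-type libraries. Its difference was -0.23 ± 0.57 (SE, limma adjusted p = 0.846) with 6 libraries, and without BLM3 Igtp rose by 0.50 ± 0.099 (adjusted p = 0.0498), just inside the threshold. Igtp overlaps Irgm2 over 7974 bases on the same strand, and Irgm2 had 12.7, 13.2 and 11.1 and 8.87, 9.83 and 24.7 FPKM. Ifi47 was at 24.0, 22.2 and 20.7 and 14.2, 6.58 and 49.0 FPKM, with a difference of 0.37 or, without BLM3, 1.11 (adjusted p = 0.0819), and it overlaps Olfr56 over 20388 bases. Irgm1, a regulatory IRG, had 12.1, 12 and 10.3 and 9.04, 12 and 36.3 FPKM, and its groups overlapped with and without BLM3. The family median was -0.23 with 6 libraries and 0.50 without BLM3, and with array weights it was also positive.

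The transcription factors of the list held both arrangements. Irf7, the amplifier of type I interferon production, had 4.82, 3.40 and 3.06 FPKM in the knockout and 6.02, 6.28 and 35.5 in the wild-type libraries, with no overlap (-1.39 ± 0.63, SE, limma adjusted p = 0.274, or -0.61 and 0.111 without BLM3). Irf1, an early target of type II interferon, had 13.2, 13.8 and 26.5 and 9.22, 10.7 and 35.1 FPKM. Every knockout value of Irf1 lay above BLM1 and BLM2 and below BLM3, and A20-4 was the highest of the 3. The difference was 0.14 ± 0.52 (SE) with 6 libraries, negative without any 1 of A20-4, BLM1 or BLM2, and 0.72 ± 0.29 without BLM3 (adjusted p = 0.206). Of the genes for ISGF3 subunits in the list, Irf9 had 7.74, 8.87 and 11 and 8.31, 11.1 and 14.1 FPKM, and Stat2 14.6, 13.4 and 13.8 and 13.5, 14.3 and 19.4. Both overlapped between groups, and BLM3 was only 1.46 and 1.39 times the mean of BLM1 and BLM2. Irf9 overlaps Rnf31 over 123 bases and Irf7 overlaps Phrf1 over 45 bases.

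Isg15 encodes a ubiquitin-like protein that is conjugated to other proteins, and Usp18 encodes the protease that removes it and damps IFNAR signalling. Isg15 (chr4:156199424-156200818, minus strand) had 16.6, 13.0 and 7.38 FPKM in the knockout and 17.6, 24.0 and 152 in the wild-type libraries, and Usp18 1.88, 1.42 and 0.947 and 3.04, 2.50 and 16.5. Neither overlapped between groups, with differences of -1.70 ± 0.78 and -1.39 ± 0.60 (SE, limma adjusted p = 0.281 and 0.257), or -0.76 and -0.66 without BLM3 (adjusted p = 0.21 and 0.11). The ADP-ribosyltransferase genes Parp9 and Parp14 and the ubiquitin ligase gene Dtx3l, which works with PARP9, are neighbours on chromosome 16. Their differences lay between -0.20 and 0.034 with 6 libraries and between 0.00040 and 0.35 without BLM3. Parp14 and Dtx3l, but not Parp9, then had all knockout values above BLM1 and BLM2. Parp9 and Dtx3l overlap over 682 bases on opposite strands, so reads there cannot be assigned unless strand was used.

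Sensors and effectors of foreign nucleic acid overlapped between the groups in 6 of 7 cases. All knockout values were lower in 1 of 7 (14.3%), near the 13.1% of all genes tested. Ifi204, a DNA sensor of the PYHIN family, had 17.9, 15.7 and 13.2 FPKM in the knockout and 18.2, 20.1 and 56.2 in the wild-type libraries, without overlap (-0.79 ± 0.41, SE, limma adjusted p = 0.327, or -0.29 and 0.284 without BLM3). Eif2ak2, which encodes the kinase PKR, had 13.4, 9.67 and 8.90 and 12.3, 12.4 and 16.3 FPKM and overlapped. The RNA helicases Ifih1 (MDA5) and Ddx58 (RIG-I), the sensor Zbp1 of Z-form nucleic acids, the nucleotide hydrolase Samhd1 and the exonuclease Isg20 had overlapping groups too. All 7 differences were negative with 6 libraries, from -0.79 to -0.071, and 3 of the 7 were positive without BLM3, in a range from -0.29 to 0.13. BLM3 was again the highest library for all 7, and it was 4.07 times the mean of BLM1 and BLM2 for Isg20 and 3.74 times for Zbp1.

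Among the remaining effectors, Ifi27l2a had 73.8, 56.6 and 39.7 FPKM in the knockout and 116, 139 and 248 in the wild-type libraries. The groups did not overlap, and the difference with 6 libraries, -1.51 ± 0.33 (SE, limma adjusted p = 0.0908), was -1.19 ± 0.25 without BLM3 (adjusted p = 0.0547). Bst2, the virus-tethering protein tetherin, had 66.4, 67.0 and 54.2 and 76.3, 95.9 and 159 FPKM, without overlap (-0.75 ± 0.27, adjusted p = 0.193, or -0.45 and 0.14 without BLM3). Rsad2 and the neighbouring nucleotide kinase gene Cmpk2 on chromosome 12, the chaperone gene Rtp4 and the apoptosis factor gene Xaf1 also had all knockout values below all wild-type values, with differences of -1.84, -1.24, -1.41 and -1.05. Without BLM3 these were -0.67, -0.61, -0.67 and -0.57. Ifi35 and the nuclear body gene Sp100 overlapped (-0.23 and -0.61, or 0.0051 and -0.20 without BLM3). Ifi44 was near the detection limit, at 0.496, 0.221 and 0.217 and 0.304, 0.400 and 1.46 FPKM, and was not tested. In all, 6 of the 8 tested members here had all knockout values lower, as did 13.1% of all genes, and the adjusted p of the 8 ran from 0.0908 upward.

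**Figure D2:**
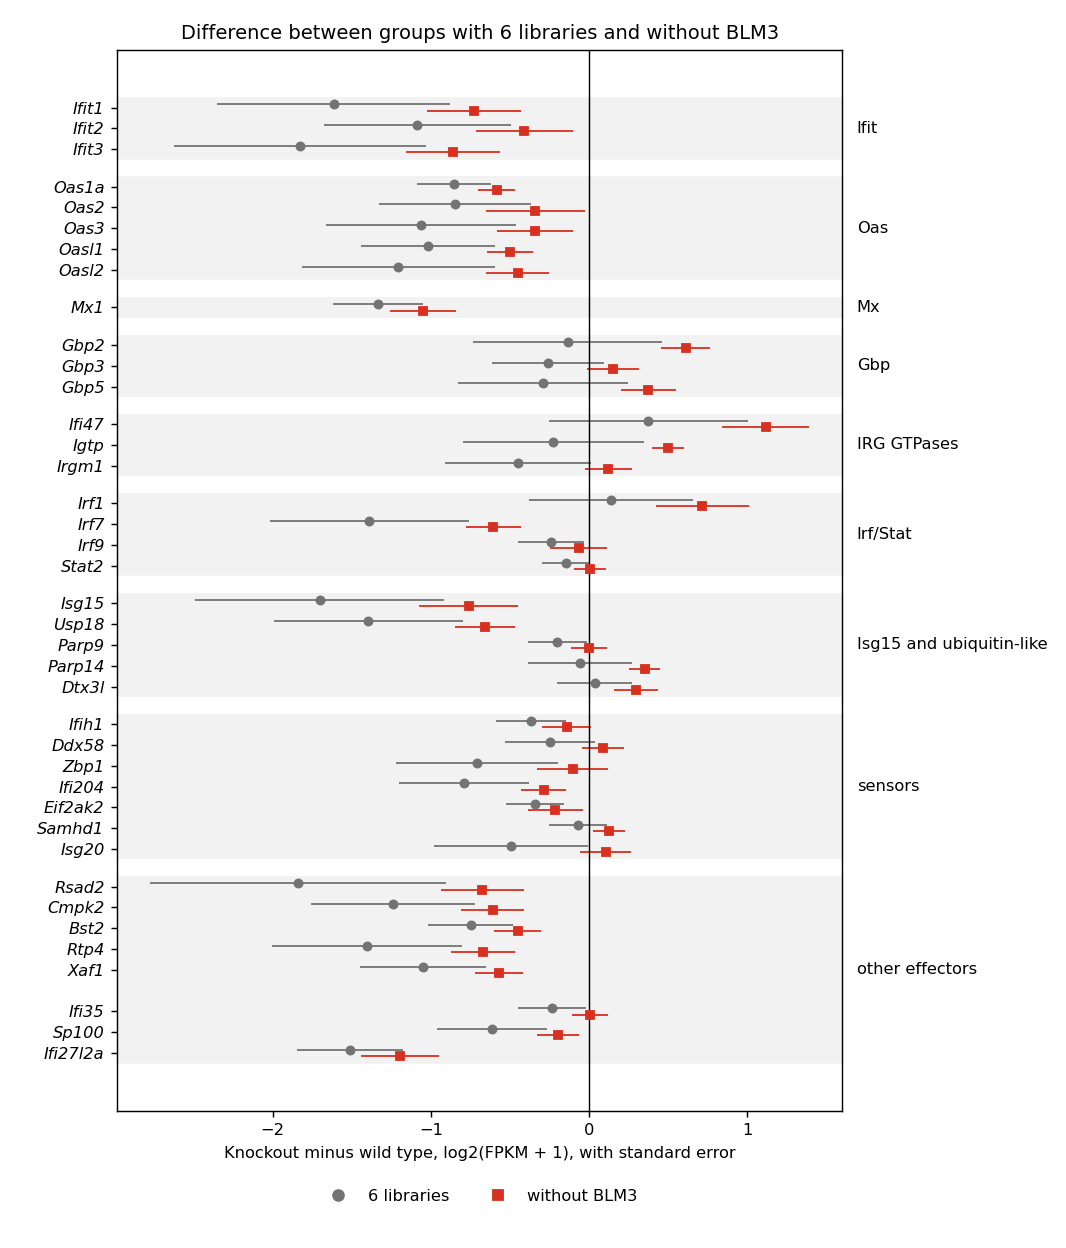
Difference between groups (knockout minus wild type, log2(FPKM + 1)) for the 39 tested members; grey circles use all 6 libraries, red squares leave out BLM3, and bars are standard errors. Without BLM3 the Ifit, Oas and Mx1 squares stay below 0, whereas those of Gbp2, Gbp5, Igtp, Ifi47 and Irf1 lie above it.

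Families were compared by their level in each library, the mean of log2(FPKM + 1) over the members in the table. The Ifit level was 3.14, 2.55 and 2.06 in the knockout and 3.20, 3.29 and 5.78 in the wild-type libraries. The Oas level was 2.86, 2.70 and 2.34 and 2.97, 3.18 and 4.73. Both families lay lowest in A20-4 and highest in BLM3. The Gbp level was 4.12, 3.81 and 3.74 and 3.38, 3.64 and 5.34, and the IRG level 4.28, 4.26 and 4.13 and 3.77, 3.52 and 5.68. For these the 3 knockout libraries lay above BLM1 and BLM2 and below BLM3. The Irf and Stat level, 3.36, 3.29 and 3.57 and 3.31, 3.48 and 4.66, overlapped between groups. The median excess of BLM3 over the mean of BLM1 and BLM2 was 2.66 for Ifit, 2.17 for IRG, 2.0 for Gbp, 1.55 for Oas, 1.12 for the Irf and Stat genes and 0.85 for Mx1.

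**Figure D3:**
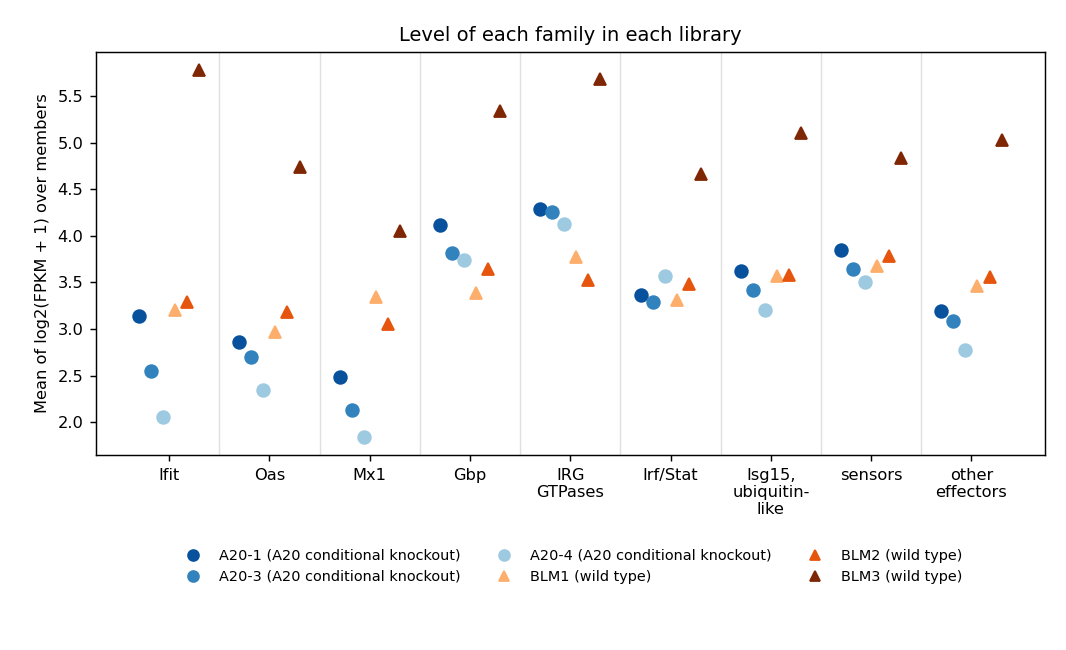
Level of each family in each library, as the mean of log2(FPKM + 1) over its listed members (Mx is Mx1 alone); circles are knockout and triangles wild-type libraries. BLM3 is highest for all 9 groups of members, and BLM1 and BLM2 lie above the knockout libraries for Ifit, Oas and Mx1 but below them for Gbp and IRG GTPases.

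Taking the difference between a pair of families inside each library removes the part of a shift that both share. The high level in BLM3 was shared only in part, since its median excess ran from 0.85 for Mx1 to 2.66 for Ifit. Oas minus Gbp was -1.26, -1.12 and -1.40 in the knockout and -0.41, -0.46 and -0.60 in the wild-type libraries, so that BLM3 lay close to BLM1 and BLM2 on this measure. The means were -1.26 ± 0.14 and -0.49 ± 0.097 (SD, n = 3 each). Ifit minus Gbp was -0.98, -1.26 and -1.68 against -0.18, -0.35 and 0.44, and Ifit minus IRG -1.15, -1.71 and -2.07 against -0.57, -0.23 and 0.097. Oas minus IRG was -1.42, -1.56 and -1.79 against -0.80, -0.34 and -0.94. Mx1 minus IRG, at -1.80, -2.13 and -2.28 against -0.42, -0.46 and -1.63, came nearest to overlap among the pairs with Gbp or IRG, through BLM3. Ifit minus Irf and Stat was closest of all, at -0.23, -0.74 and -1.51 against -0.11, -0.19 and 1.12. Of the 15 pairs among the 6 families, the 9 that set Ifit, Oas or Mx1 against Gbp, IRG or the Irf and Stat genes had all knockout values below all wild-type values, and the other 6 pairs overlapped. The pairs share members and libraries, the pattern was noticed in these libraries, and no p is given for it.

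**Figure D4:**
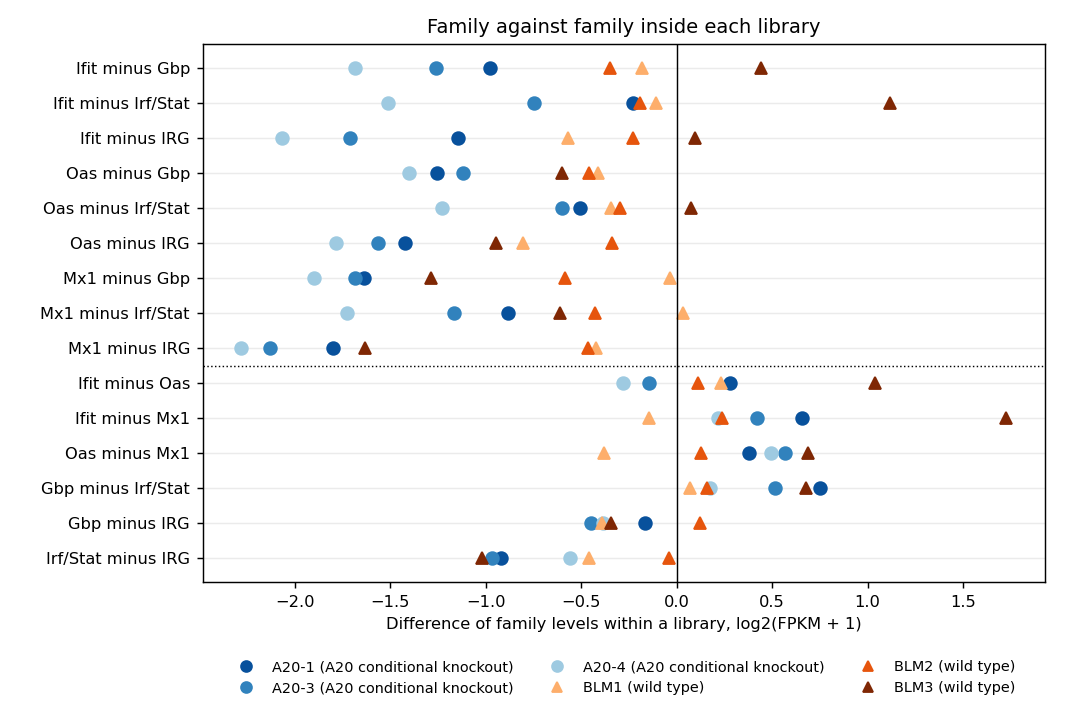
Difference between the levels of 2 families inside each library, log2(FPKM + 1), for all 15 pairs of the 6 families; circles are knockout and triangles wild-type libraries. Above the dotted line, 9 pairs have all circles left of all triangles, and below it the 6 other pairs overlap.

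Of 11 interferon genes looked for, only Ifng had a row in the table. It had 3.22, 5.5 and 3.54 FPKM in the knockout and 0.808, 1.52 and 5.06 in the wild-type libraries, so BLM1 and BLM2 lay below the other 4 libraries. The difference was 0.72 ± 0.44 (SE, limma adjusted p = 0.39) with 6 libraries, and without BLM3 Ifng rose by 1.23 ± 0.24 (adjusted p = 0.0464). Of the 10 T and NK cell markers tested, 2 rose without BLM3 (1.35% of all genes did), namely Cd8a (23.5, 32.5 and 36.1 against 12.5, 12.3 and 38.8 FPKM, adjusted p = 0.0273) and Nkg7 (43.5, 51.8 and 45.4 against 27.8, 27.9 and 64.5, adjusted p = 0.0274), and 3 of 10 had all knockout values above BLM1 and BLM2, near the 23.5% of all genes. Without BLM3, 8 of the 10 differences were positive and 2 negative, with a median of 0.36 beside 0.028 over all genes. The 2 negative ones were those of Cd3d (-0.17) and Cd4 (-0.23). With 6 libraries 5 were positive and 5 negative, with a median of 0.0078 beside 0.021. The part of such cells in the Gbp and IRG values was not tested. These 4 markers were chosen after their values were seen.

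Upstream of the members, 0 of 15 receptor, kinase, STAT and inhibitor genes passed the test with or without BLM3. Over all genes 0.851% fell and 0.252% rose with 6 libraries, and 2.50% and 1.35% without BLM3. At such shares 0 calls in a short list says little. There were 11 negative and 4 positive differences over 6 libraries and 8 and 7 without BLM3. The smallest p belonged to Ifngr1, the ligand-binding chain of the type II receptor, at 88.3, 102 and 102 and 68.8, 65.8 and 75.3 FPKM (0.47 ± 0.11, SE, limma adjusted p = 0.103), and to the kinase Tyk2, at 22.0, 23.6 and 23.7 and 17.8, 18.5 and 15.4 (0.40 ± 0.11, adjusted p = 0.118). In both the knockout values lay above all wild-type values, BLM3 included. Such an arrangement held in 2 of the 15 (13.3%), near the 15.9% of all genes tested. Among 17 genes that lead from nucleic acid sensing to interferon, 0 passed in either setting, which again says little in so short a list. Mavs, the mitochondrial adaptor of the RNA helicases, had 30.2, 38.5 and 44.5 and 22.4, 24.6 and 15.3 FPKM (0.84, limma adjusted p = 0.114), above the wild-type range. The helicase Dhx58 had 8.09, 7.05 and 6.39 and 10.1, 9.57 and 17.6 (-0.67, adjusted p = 0.183, or -0.41 and 0.124 without BLM3), below that range. Each was 1 of 17 (5.88%), under the 15.9% of all genes tested that lay above and the 13.1% that lay below.

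The families have further genes outside the list, of which 30 were tested. With 6 libraries 0 of the 30 passed in either direction, where 0.851% of all genes fell and 0.252% rose. Of the differences, 25 were negative and 5 positive, with a median of -0.25. Without BLM3 the split turned to 13 negative and 17 positive, with a median of 0.053. With 6 libraries the smallest p belonged to Stat3, at 33.6, 30.2 and 32.7 and 24.3, 23.3 and 24.7 FPKM (limma adjusted p = 0.0993). Oas1g followed (adjusted p = 0.109). Without BLM3, 2 of the 30 rose (6.67%, against 1.35% of all genes) and 0 fell (against 2.50% of all genes). The 2 were Gbp4 and Gbp6, both chosen after their values were seen. Gbp4 had 6.89, 7.69 and 7.14 FPKM in the knockout and 4.11, 3.83 and 16.0 in the wild-type libraries (limma adjusted p = 0.0284). Gbp6 had 7.39, 8.01 and 8.23 and 2.83, 4.6 and 13.7 (adjusted p = 0.0453). Gbp4 overlaps Gbp8 and Gbp9 on the same strand, and how reads were divided among them is not given, so these values are uncertain. In the fit without BLM3, Ifit1bl1, Ifit3b, Oas1c and Oas1g had negative differences of -0.34, -0.54, -0.32 and -0.74. Ifit1bl2, near the detection limit outside BLM3, had -0.063. Of the other Gbp genes, Gbp7, Gbp8 and Gbp10 had positive differences of 0.32, 0.54 and 0.55, and Gbp9 had a negative difference of -0.011. The IRG genes Iigp1, Irgm2, Tgtp1 and Tgtp2 had positive ones of 0.84, 0.37, 0.44 and 0.74, none of which passed the test. Tgtp1 and Tgtp2 are near-identical copies and their separate values are uncertain.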

How the data were processed

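RNA was extracted with Trizol from flash-frozen cells, and stranded libraries were made with a KAPA kit from 1 ug of total RNA, per the labels' protocols. Per the file headers, the authors deposited FPKM values for each gene in each library. The submitters' processing notes name GRCm38. Sources used here do not give the aligner, quantifier, annotation or use of strand. Every listed gene reached 0.5001 mean FPKM in its higher group. Columns were assigned to groups by name. Those named only BLM were taken as wild type, the group left over. The 6 libraries held no identical pair.

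Values were compared as log2(FPKM + 1), a pseudocount of 1, for genes whose mean FPKM was 1 or more, by the two-sided test of limma 3.58.1 in R 4.3.3 (lmFit, eBayes with trend). P-values of the 10696 genes were adjusted by Benjamini and Hochberg's method, with a threshold of 0.05. Fold changes on this scale are understated for low genes. The code was tested on simulated data. Alternatives were pseudocount, filter, TPM rescaling, quantile normalization, array weights, robust moderation and leaving out each library.

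The members, families, lists and tests were chosen with earlier results of these data known. The genes with values in every library are the members of the 6 families, the 2 with the smallest p in each other group of members, and the 2 with the smallest p in each pathway list; others are marked or serve to name an overlapping or near-identical gene.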

Additional observations from a re-analysis of the deposited data

How the results depend on the processing

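The count of members that fell was 0 with a pseudocount of 0.1 or 5, without a filter on low FPKM or with a minimum of 5, after rescaling to TPM, with quantile normalization and with robust moderation, and it was 3 with array weights. Leaving out 1 library in turn gave 0 to 2 falls and 0 to 1 rises, and the counts above 0 came from the fit without BLM3. The median over the members ran from -0.98 to -0.21 in those fits. The value of Mx1, alone in its family, was -0.85 with a pseudocount of 5. Over all genes, rescaling to TPM gave 64 falls and 41 rises beside 91 and 27, a share of 39.0% rises beside 22.9%, and array weights gave 992 and 942; the median over all genes was 0.10 under TPM. With array weights, 12 members turned positive, namely Gbp2 (0.66), Gbp3 (0.26), Gbp5 (0.29), Irf9 (0.089), Stat2 (0.014), Igtp (0.38), Irgm1 (0.19), Parp14 (0.30), Ddx58 (0.0071), Samhd1 (0.099), Isg20 (0.16) and Ifi35 (0.055). Under TPM, Parp14 (0.027) and Samhd1 (0.012) did so. Leaving out 1 library turned the sign of 15 members, whose ranges were -0.60 to 0.61 for Gbp2, -0.58 to 0.15 for Gbp3, -0.63 to 0.37 for Gbp5, -0.19 to 0.72 for Irf1, -0.24 to 0.0041 for Stat2, -0.25 to 1.11 for Ifi47, -0.62 to 0.50 for Igtp, -0.83 to 0.12 for Irgm1, -0.30 to 0.00040 for Parp9, -0.27 to 0.35 for Parp14, -0.12 to 0.29 for Dtx3l, -0.43 to 0.087 for Ddx58, -0.17 to 0.13 for Samhd1, -0.88 to 0.10 for Isg20 and -0.40 to 0.0051 for Ifi35. The cause was not tested. A fit without a library has fewer values, so a call gained or lost is not a change in size. No paired analysis was possible because the table's columns do not carry the replicate numbers of the sample titles. Depth is unknown, which leaves members near 1 FPKM, such as Usp18 and Cmpk2 in A20-4, without a counting error.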

Other observations

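Genes of antigen presentation and chemokines that interferon also induces were looked at beside the members. Of 10 tested, 0 passed the limma test with or without BLM3, which says little in so short a list. At an unadjusted p under 0.05 limma gave 0 with 6 libraries (20.3% of all genes) and 2 without BLM3 (23.3% of all genes). The immunoproteasome subunit Psmb8 had 63.2, 65.5 and 65.0 FPKM in the knockout and 59.2, 67.5 and 90.2 in the wild-type libraries, and the peptide transporter Tap2 had 33.1, 35.9 and 34.9 and 27.6, 30.2 and 41.6. Ciita, the regulator of MHC class II, had 21.3, 12.7 and 13.5 and 12.9, 11.7 and 10.2 FPKM and the smallest p of these genes (limma adjusted p = 0.337). The chemokine Cxcl10 had 3.34, 2.72 and 1.16 and 1.90, 3.05 and 36.1 FPKM, with BLM3 14.6 times the mean of BLM1 and BLM2, whereas Cxcl9, a chemokine driven mainly by type II interferon, had 12.7, 9.72 and 5.58 and 1.58, 6.50 and 11.6, with A20-1 above BLM3. Psmb8, Tap2 and Cxcl9 were chosen after their values were seen.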
